A study of Mus musculus with 8 samples.

Results

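The genes described here encode the fatty acid elongases ELOVL1, ELOVL2, ELOVL3, ELOVL4, ELOVL5 and ELOVL7 and the fatty acid desaturases FADS1, FADS2 and FADS3. They were taken by gene symbol, and all 9 were found once each among the 19348 genes of the count table. Elovl3 was chosen by its counts in liver, which were lower in the libraries labelled Crtc1-/-, so its liver values are given as a description without a test. The other 8 symbols were chosen as members of the same families, with results of these data already known.

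RNA-seq was performed on liver and epididymal white adipose tissue (eWAT) of male C57BL/6 mice aged 12 weeks that had fasted for 16 h on a normal diet. Crtc1, a coactivator of the transcription factor CREB, had been disrupted in the whole body with CRISPR/Cas9 guides against 2 of its exons, and Crtc1-/- mice were compared with Crtc1+/+ littermates. Each tissue and genotype had 2 libraries, described in the study's methods as separate biological samples, 8 libraries in all. By the study's methods 2 mice of each genotype were killed and gave both tissues, so liver and eWAT libraries of a genotype appear to share mice. The labels do not say which libraries came from the same mouse.

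Elongases carry out the first and rate-limiting step of the cycle that adds 2 carbons to a fatty acyl-CoA in the endoplasmic reticulum, and each ELOVL enzyme prefers substrates of certain lengths and degrees of unsaturation. The FADS enzymes place double bonds into fatty acyl chains with electrons passed on by cytochrome b5. FADS2 and FADS1 alternate with ELOVL5 and ELOVL2 to turn linoleic and alpha-linolenic acid from the diet into arachidonic acid and docosahexaenoic acid, a pathway that is active in liver.

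Library totals ranged from 16560070 to 19721464 estimated counts. Counts of Crtc1 per gene were not lower in the libraries labelled Crtc1-/-, with log2 fold changes of 0.89 in liver (SE 0.27, adjusted p = 0.184) and 0.48 in eWAT (SE 0.37, adjusted p = 0.396). These counts cover the whole gene and not the targeted exons alone, so the genotype is given as labelled throughout. The libraries also differed in the cell types they held. Markers of hepatocytes took 20.8% to 24.7% of counts in liver, but in eWAT they took 11.3% in Crtc1-/- replicate 2 and 0.143% to 0.717% in the other 3 libraries. Markers of the epididymis, the sperm duct that borders this fat pad, took 8.01% and 9.35% of counts in Crtc1+/+ eWAT and 0.00265% and 0.00128% in Crtc1-/- eWAT. All 14 adipocyte markers were detected in each eWAT library, and together they took 0.290% and 0.481% of counts in Crtc1+/+ and 4.85% and 2.33% in Crtc1-/-. The 95% Wilson interval of such a share was narrow at this depth, 7.99% to 8.02% for the share of 8.01%, and covers counting error only. In such bulk tissue, fewer cells of a type and less RNA per cell cannot be told apart.

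The 9 genes lie in a few places of the mouse genome (GRCm38.p6, RefSeq). Fads3 (plus strand, chr19:10040855-10060113), Fads2 (minus strand, chr19:10062765-10101503) and Fads1 (plus strand, chr19:10182877-10196874) form a cluster of 156020 bases, in which Fads3 and Fads2 are 2651 bases apart at their 3′ ends. Elovl3 (plus strand, chr19:46131897-46135694) is on the same chromosome, 35935022 bases away from Fads1. Elovl5 (chr9:77917365-77984519, plus strand) and Elovl4 (chr9:83778692-83806305, minus strand) share chromosome 9, Elovl2 (chr13:41182382-41220403, minus strand) and Elovl7 (chr13:108214326-108287109, plus strand) share chromosome 13, and Elovl1 (chr4:118426874-118432953, plus strand) is alone. In GENCODE the reference transcript has 4 exons for Elovl3, 6 for Elovl4, 8 for Elovl1, Elovl2, Elovl5 and Elovl7, and 12 for each of the 3 Fads genes. Exons of Elovl3 share 10 bases with Pitx3 and exons of Elovl1 share 53 bases with Cdc20, both on the opposite strand. Pitx3 had at most 3.05 counts in any library. Cdc20 had 360 and 167 counts in Crtc1+/+ eWAT, 199 and 48 in Crtc1-/- eWAT and 5 to 17 in liver.

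The 250 bases before an annotated start were read from RefSeq for 7 of the 9 genes, in 9 windows because Elovl1 and Elovl2 have 2 starts each. They were searched on both strands for CACGTG, the E-box bound by CLOCK, BMAL1 and SREBP proteins, for AGGTCA, the core bound by many nuclear receptors, for 2 copies of AGGTCA with 1 base between them (the PPAR:RXR element), for TGACGTCA (the full CREB element), for TTATGTAA (the D-box) and for TCACNCCAC (a sterol response element). An E-box was found in the Elovl5 window, 161 bases before the start, and 6.02% of all 32851 mouse windows held one. An AGGTCA core was found before the second start of Elovl1, 95 bases upstream, and 14% of all windows held one. The other motifs, held by 1.55% (TGACGTCA), 0.819% (TTATGTAA), 1.05% (TCACNCCAC) and 0.0335% (paired AGGTCA) of all windows, did not occur in the windows of these genes. A match is only a match of letters. The windows of Fads3, Elovl1 and Elovl7 and a window of Elovl2 lie inside, or partly inside, the gene spans given above. The windows of Elovl5, Elovl2 and Fads2 overlap exons of the GENCODE reference transcript of the same gene. The windows with a match are shown first, followed by those of Fads3 and Elovl4, the members that differed by genotype in eWAT, each 5′ to 3′ on the strand of the gene, with the matched bases in capitals. They cover chr9:77917115-77917364 for Elovl5, chr4:118429451-118429700 for Elovl1, chr19:10041298-10041547 for Fads3 and chr9:83806306-83806555 for Elovl4.
Elovl5: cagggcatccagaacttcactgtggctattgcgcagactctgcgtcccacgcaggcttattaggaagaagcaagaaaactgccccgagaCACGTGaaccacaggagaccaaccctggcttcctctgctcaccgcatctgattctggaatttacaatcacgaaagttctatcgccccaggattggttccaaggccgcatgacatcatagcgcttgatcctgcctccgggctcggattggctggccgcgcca
Elovl1: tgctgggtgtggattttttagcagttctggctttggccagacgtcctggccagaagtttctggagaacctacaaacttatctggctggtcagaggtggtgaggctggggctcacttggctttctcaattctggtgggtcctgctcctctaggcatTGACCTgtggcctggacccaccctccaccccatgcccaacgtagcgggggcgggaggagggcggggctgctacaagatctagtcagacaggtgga
Fads3: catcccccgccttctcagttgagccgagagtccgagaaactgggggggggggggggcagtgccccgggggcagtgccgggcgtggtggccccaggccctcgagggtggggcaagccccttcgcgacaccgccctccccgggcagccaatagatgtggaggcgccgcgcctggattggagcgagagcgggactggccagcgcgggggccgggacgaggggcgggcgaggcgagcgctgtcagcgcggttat
Elovl4: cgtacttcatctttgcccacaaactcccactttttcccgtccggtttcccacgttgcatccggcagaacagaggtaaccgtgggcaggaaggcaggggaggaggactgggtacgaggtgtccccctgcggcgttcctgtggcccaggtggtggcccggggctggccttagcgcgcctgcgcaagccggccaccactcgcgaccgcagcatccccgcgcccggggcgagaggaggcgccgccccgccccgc

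Levels of different genes were compared in FPKM, which divides by transcript length. In Crtc1+/+ liver the order was Fads2 (245 ± 39.9 FPKM, mean ± SD, n = 2), Elovl5 (126 ± 14.5), Elovl2 (94.3 ± 18.1), Fads1 (68.5 ± 6.80), Elovl1 (44.9 ± 8.86) and Elovl3 (11.8 ± 0.0283), with Fads3, Elovl7 and Elovl4 under 1 FPKM. No 2 neighbours in this order overlapped between their libraries. In liver labelled Crtc1-/-, Fads2, Elovl5 and Fads1 each overlapped with the next in order, Fads1 with Elovl2. There Elovl3 lay at 1.21 and 0.26 FPKM beside Fads3 at 0.77 and 0.88. In Crtc1+/+ eWAT the highest levels were Fads2 (159 ± 26.8 FPKM), Fads1 (125 ± 8.32) and Elovl1 (41.7 ± 7.09). In Crtc1-/- eWAT Fads3 was the highest (198 ± 97.9 FPKM), above Elovl1 (69.5 ± 25.9), Elovl5 (55.2 ± 21.6), Fads1 (36.2 ± 5.43) and Fads2 (32.2 ± 13.6), of which each overlapped with the next.

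**Figure D1:**
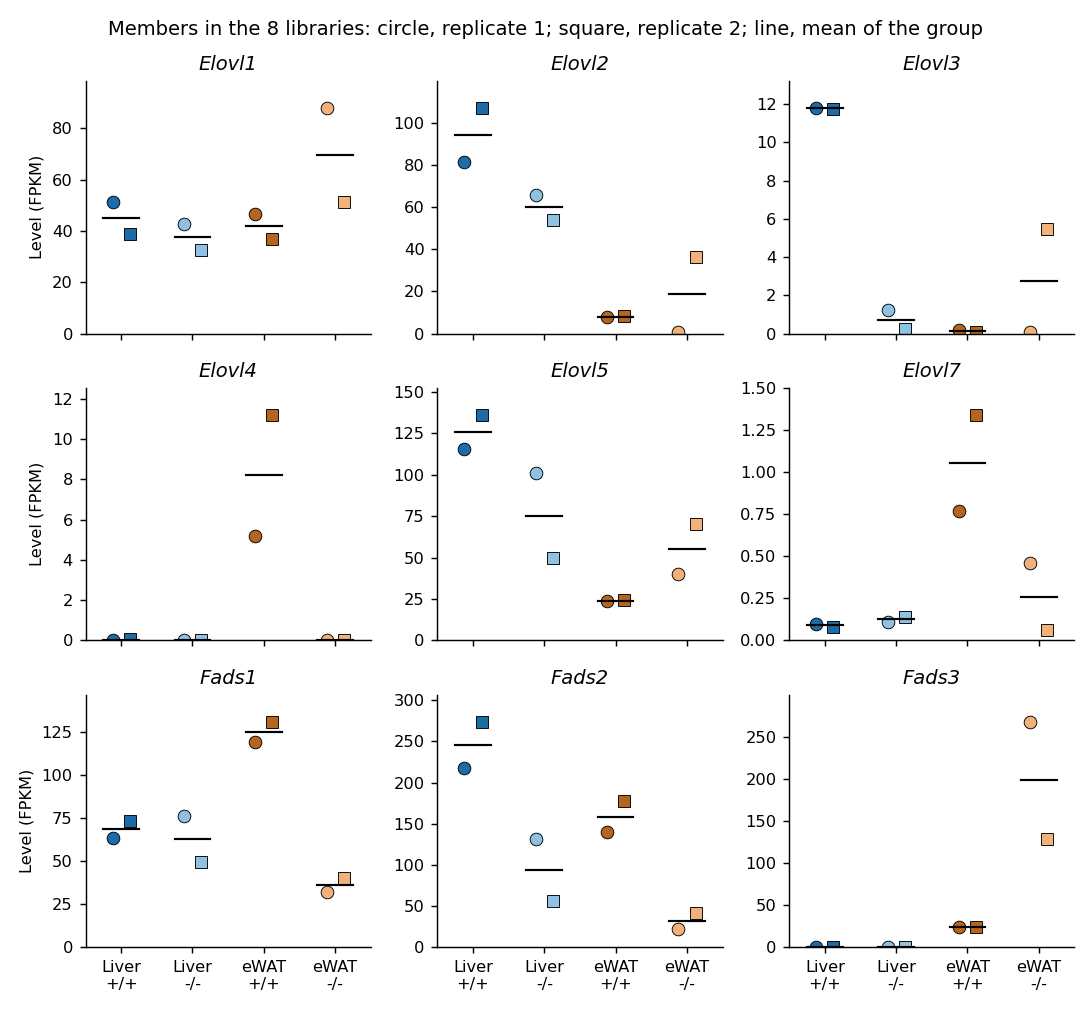
Level of each member in FPKM (linear axis from 0, a scale of its own in each panel) in the 8 libraries, with circles for replicate 1, squares for replicate 2 and a line at the mean of each group of 2. Elovl3 stood at 11.79 and 11.75 FPKM in Crtc1+/+ liver and at 5.47 in 1 of the 2 Crtc1-/- eWAT libraries, and Fads3 was highest in Crtc1-/- eWAT.

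The genotype comparison in liver asked which of these genes differed between Crtc1-/- and Crtc1+/+ mice. Elovl3, an elongase of saturated and monounsaturated chains known from brown fat, sebaceous glands and the liver of male mice, had 341 and 358.95 counts in Crtc1+/+ liver (17.5 and 18.8 CPM, counts scaled to a common library size by TMM) and 31 and 5 counts in Crtc1-/- liver (1.62 and 0.292 CPM). The groups were far apart, and the 2 Crtc1-/- livers differed from each other by more than the 2 Crtc1+/+ livers. The log2 fold change was -4.21 (SE 0.55), which is 18.5-fold lower, and without Crtc1-/- replicate 1 it was -5.92. These are the values that led to the choice of Elovl3. Per 100000 counts of the hepatocyte markers, Elovl3 had 8.04 and 7.98 counts in Crtc1+/+ liver and 0.785 and 0.122 in Crtc1-/- liver. These are the same counts on another scale and no separate evidence, as the hepatocyte shares were alike in the livers (20.8% to 24.7%). The 8 sebaceous gland and skin markers summed to 40 to 58 counts and the 7 brown fat markers to 32 to 117 counts in any liver library.

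Of the other members, 7 were tested in liver and none passed an adjusted p of 0.05 in edgeR's quasi-likelihood test, while 0.0854% of the 11707 genes tested did (10 genes, 0.0598% higher and 0.0256% lower; 2029 had an unadjusted p under 0.05). By DESeq2 and with no expression filter the count was 1, Fads2. The median log2 fold change of these 7 was -0.32, against 0.00 for all genes. Elovl4 was not in the fit, with 0 and 3 counts in Crtc1+/+ and 1 and 0 in Crtc1-/-.

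Fads2, the desaturase that acts first on linoleic and alpha-linolenic acid, had 299 and 380 CPM in Crtc1+/+ liver and 179 and 75.4 CPM in Crtc1-/- liver. Both Crtc1-/- libraries were below both Crtc1+/+ libraries. Its log2 fold change was -1.42 (SE 0.39, adjusted p = 0.162), which was past the study's own threshold, a change of more than 1 on the log2 scale at an edgeR p under 0.01 before adjustment. So were 4.27% of all genes tested, 2.84% as higher and 1.43% as lower. The adjusted p was 0.00996 by DESeq2 and 0.0282 with no expression filter. Fads1, which makes the last double bond of arachidonic acid, had 204 and 243 CPM in Crtc1+/+ and 237 and 148 CPM in Crtc1-/-, with overlapping groups (log2 fold change -0.22, SE 0.29, adjusted p = 0.726). The ratio of Fads2 to Fads1 within a library, in FPKM, was therefore 3.41 and 3.73 in Crtc1+/+ liver and 1.72 and 1.15 in Crtc1-/- liver. The groups did not overlap in this ratio, but an exact permutation test of 2 against 2 cannot give a p under 0.333, so it was not tested.

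Elovl5 and Elovl2, the elongases of polyunsaturated chains, were both nominally lower. Elovl5 had 308 and 367 CPM in Crtc1+/+ liver and 263 and 126 CPM in Crtc1-/- liver (log2 fold change -0.79, SE 0.35, adjusted p = 0.285). Elovl2 had 305 and 405 CPM against 242 and 194 CPM (log2 fold change -0.70, SE 0.27, adjusted p = 0.25). Neither pair of groups overlapped, which held for 52.1% of all genes tested and for 5 of these 7. With Crtc1-/- replicate 1 left out, 3 members passed the test, Fads2 (log2 fold change -2.16), Elovl5 (-1.42) and Elovl2 (-0.87), and 1507 genes in all. That fit sets replicate 2 alone against the 2 Crtc1+/+ livers, which give all of the spread, so it describes this library rather than the genotype. The same holds below in every fit within a tissue that leaves a library out, where the lone library is assumed to vary like the other group. Replicate 2 of Crtc1-/- liver was the lower of its group for each of Elovl1, Elovl2, Elovl3, Elovl5, Fads1 and Fads2.

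The remaining members did not pass the test in liver. Elovl1, which elongates saturated chains for sphingolipids, had 86.7 and 66.2 CPM in Crtc1+/+ and 71.3 and 51.2 CPM in Crtc1-/- (log2 fold change -0.32, SE 0.28, adjusted p = 0.57). Fads3, which desaturates the sphingoid base of ceramides, had only 39 to 46 counts in any liver library (log2 fold change 0.31, SE 0.38, adjusted p = 0.697). Elovl7, an elongase of saturated chains, had 8 to 12 counts (log2 fold change 0.44, SE 0.53, adjusted p = 0.687).

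In eWAT Fads3 was higher and Elovl4 lower in Crtc1-/- mice. These were the 2 members called among the 8 in the fit (1 higher and 1 lower), where 12.2% of the 15391 genes tested were called, 6.65% of them all as higher and 5.54% as lower. The median log2 fold change of the 8 was -0.21, against -0.05 for all genes. The groups did not overlap for 7 of the 8, and for 66.6% of all genes. Of the genes called, 54.6% were higher with TMM scaling. This was 42.8% when the upper quartile was used and 35.3% when the library size was, with medians over all genes of -0.25 and -0.35. Fads3 and Elovl4 were called in the same directions under both.

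Fads3 had 67.7 and 70.4 CPM in Crtc1+/+ eWAT and 850 and 494 CPM in Crtc1-/- eWAT. Both Crtc1-/- libraries were far above both Crtc1+/+ libraries, which hardly differed from each other. Fads3 rose by a log2 fold change of 3.28 (SE 0.43, adjusted p = 0.0208), 9.71-fold. The adjusted p was 0.156 without Crtc1+/+ replicate 1 and 0.261 without Crtc1+/+ replicate 2, fits in which no gene passed the test. Adipocyte markers moved with it. Per 100000 counts of the adipocyte markers, Fads3 had 2650 and 1600 counts in Crtc1+/+ and 1720 and 1730 in Crtc1-/-, so the groups overlapped on that scale. Markers of endothelium also took more of the counts, 0.0243% and 0.0256% in Crtc1+/+ and 0.327% and 0.181% in Crtc1-/-, and the part of either cell type in the level of Fads3 was not tested.

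Elovl4, which extends saturated and polyunsaturated chains to very great lengths and is known from retina, skin, brain and testis, had 276 and 572 counts in Crtc1+/+ eWAT (13.3 and 29.7 CPM) and 1 and 0 counts in Crtc1-/- eWAT. It fell to the floor of 3 counts per library, at least 115-fold lower (fitted log2 fold change -9.18, SE 1.01, adjusted p = 0.0174). The adjusted p was 0.143 without Crtc1+/+ replicate 1 and 0.252 without Crtc1+/+ replicate 2. The epididymis markers were lost from the same libraries, with 1466200 and 1647380 summed counts in Crtc1+/+ and 490 and 225 in Crtc1-/-, where 7 and 5 of the 18 genes were at 0. Testis and sperm markers took 0.140% and 0.0630% of counts in Crtc1+/+ and 0.0122% and 0.00145% in Crtc1-/-, and sebaceous gland and skin markers 0.0173% and 0.0165% against 0.00245% and 0.00129%. Liver libraries, which had almost no epididymis counts, had 0 to 3 counts of Elovl4. The part of these cells in the level of Elovl4 was not tested.

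Fads1 and Fads2 stood on the other side of the threshold. Fads1 had 329 and 382 CPM in Crtc1+/+ eWAT and 104 and 153 CPM in Crtc1-/- eWAT, without overlap (log2 fold change -1.47, SE 0.35, adjusted p = 0.059). Fads2 had 168 and 220 CPM against 31.3 and 70.4 CPM (log2 fold change -1.93, SE 0.48, adjusted p = 0.0638). At the study's threshold Fads1 was counted as lower and Fads2 was just outside it. With Fads3 and Elovl4 that made 3 of the 8 (1 higher, 2 lower), where 15.9% of all genes were counted, 8.37% as higher and 7.54% as lower. Without Crtc1-/- replicate 2, the library with 11.3% hepatocyte markers, both were called, Fads1 at -1.81 (adjusted p = 0.0328) and Fads2 at -2.67 (adjusted p = 0.018). Both genes thus lay in the opposite direction to Fads3 in the same cluster. The epididymis and adipocyte shares that moved with Fads3 and Elovl4 moved with these differences too, and their part was not tested.

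Elovl1 had 68.5 and 56.0 CPM in Crtc1+/+ eWAT and 150 and 106 CPM in Crtc1-/- eWAT (log2 fold change 1.04, SE 0.31, adjusted p = 0.0933). Elovl5 had 55.3 and 58.3 CPM against 107 and 228 CPM (log2 fold change 1.56, SE 0.44, adjusted p = 0.0805). For both, the Crtc1-/- libraries were above the Crtc1+/+ libraries, and DESeq2 called both (adjusted p = 0.0139 and 0.0115). Without Crtc1-/- replicate 1 the log2 fold change of Elovl5 was 2.01, from replicate 2 alone, the library with 11.3% hepatocyte markers. The part of hepatocytes or adipocytes in these differences was not tested. Elovl7 had 3.61 and 6.48 CPM in Crtc1+/+ and 2.47 and 0.347 CPM in Crtc1-/- (log2 fold change -1.82, SE 1.04, adjusted p = 0.268).

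For Elovl2 and Elovl3 the 2 Crtc1-/- eWAT libraries went apart. Elovl2 had 25.5 and 27.9 CPM in Crtc1+/+ eWAT but 2.69 CPM in replicate 1 and 165 CPM in replicate 2 of Crtc1-/-, and its log2 fold change of 1.65 had an SE of 1.57 (adjusted p = 0.485). It was called in opposite directions when either Crtc1-/- library was left out, at 2.64 without replicate 1 (adjusted p = 0.00663) and at -3.34 without replicate 2 (adjusted p = 0.0197). Elovl3 had 4 and 2.51 counts in Crtc1+/+ eWAT and 2 and 129 counts in Crtc1-/- eWAT. It did not pass the expression filter there, and with no filter its log2 fold change was 4.82 (SE 1.98, adjusted p = 0.187). Without Crtc1-/- replicate 1, with replicate 2 alone in its group, the log2 fold change of Elovl3 was 5.64. Per 100000 hepatocyte marker counts, Crtc1-/- replicate 2 of eWAT held 119 counts of Elovl2, 164 of Elovl5, 111 of Fads1 and 50.8 of Fads2, where the 4 livers held 81.2 to 172, 52.7 to 155, 62.1 to 114 and 31.6 to 161. For Elovl3 it held 6.46, close to the 8.04 and 7.98 of Crtc1+/+ liver and above the 0.785 and 0.122 of Crtc1-/- liver.

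**Figure D2:**
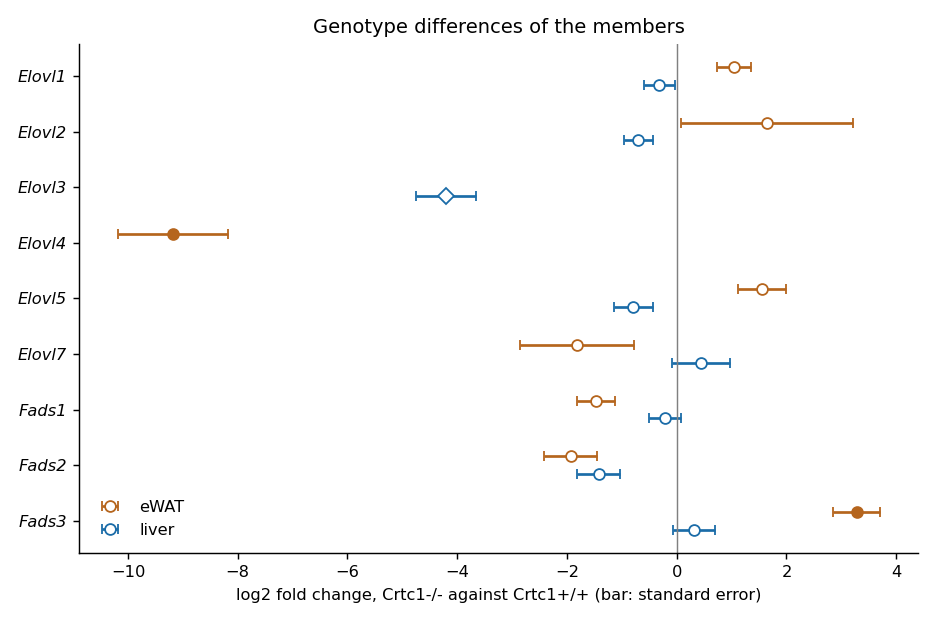
Log2 fold change of each member between Crtc1-/- and Crtc1+/+ (horizontal axis; bars are standard errors; 2 libraries a group) in eWAT (brown) and liver (blue). Filled points passed an adjusted p of 0.05, open circles did not, and the diamond is Elovl3 in liver at -4.21, which was not tested. Fads3 in eWAT lay at 3.28 and Elovl4 at -9.18, and members outside a fit have no point.

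The share of each gene in the summed FPKM of the members of its family is given as a description, without a test. The elongase Elovl6 is not among the members and is left out of these sums. Fads3 made up 0.231% and 0.184% of the summed FPKM of the 3 desaturases in Crtc1+/+ liver and 0.368% and 0.823% in Crtc1-/- liver. In eWAT its share was 8.70% and 7.44% in Crtc1+/+ and 83.0% and 61.2% in Crtc1-/-. The 3 desaturases summed to 283.5 and 333.2 FPKM in Crtc1+/+ eWAT and to 322.7 and 211.1 FPKM in Crtc1-/- eWAT, which overlapped. Among the 6 elongases, Elovl3 made up 4.53% and 4% of the FPKM in Crtc1+/+ liver, 0.573% and 0.190% in Crtc1-/- liver and 3.34% in Crtc1-/- eWAT replicate 2. These liver values are again those that chose Elovl3. The share of Elovl5 overlapped between genotypes in liver, at 44.4% and 46.3% in Crtc1+/+ and 47.8% and 36.4% in Crtc1-/-. In eWAT it did not, at 28.3% and 29.7% in Crtc1+/+ and 31% and 43.1% in Crtc1-/-. The share of Elovl1 overlapped in eWAT, at 55.2% and 44.8% in Crtc1+/+ and 68.0% and 31.3% in Crtc1-/-. In liver it did not, at 19.7% and 13.2% in Crtc1+/+ and 20.3% and 23.8% in Crtc1-/-. The elongases summed to 260.1 and 293.6 FPKM in Crtc1+/+ liver and to 211 and 136.8 FPKM in Crtc1-/- liver, without overlap. In eWAT they summed to 84.64 and 81.84 FPKM in Crtc1+/+ and 129.1 and 163.7 FPKM in Crtc1-/-, without overlap in the other direction.

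**Figure D3:**
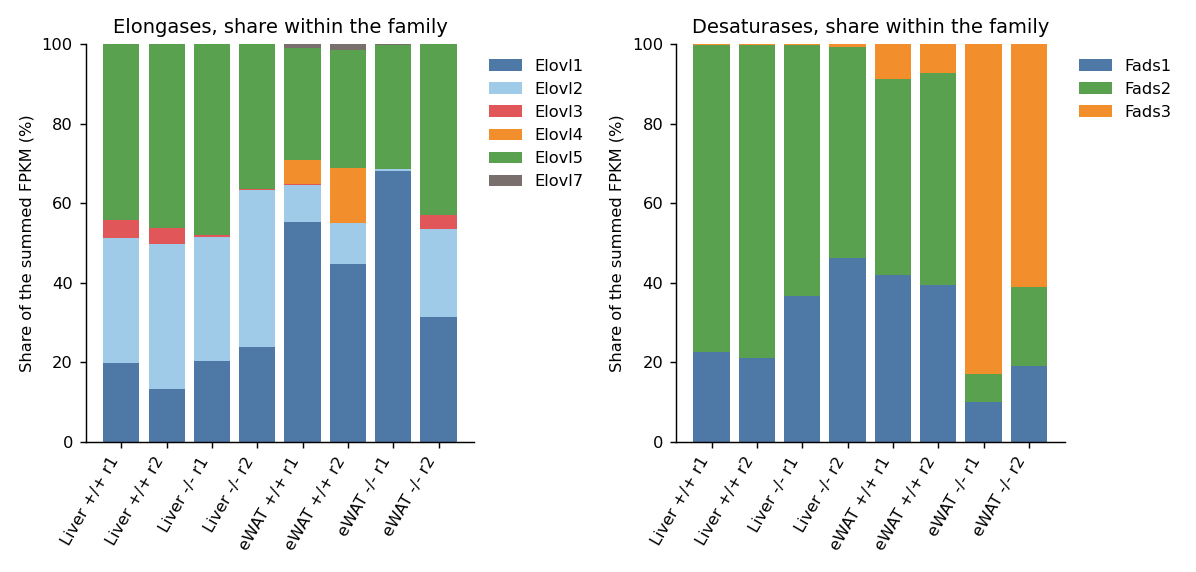
Share of each gene (percent) in the summed FPKM of the 6 elongases (left) and of the 3 desaturases (right), 1 bar per library, with r1 and r2 for the replicates. Fads3 went from 8.70% and 7.44% in Crtc1+/+ eWAT to 83.0% and 61.2% in Crtc1-/- eWAT.

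The 2 tissues were then compared within each genotype, in a fit of all 8 libraries that leaves out tests of Elovl3. In Crtc1+/+ mice 6 of the 8 other members differed between eWAT and liver, where 54.9% of the 15587 genes tested did (35.0% higher and 19.8% lower in eWAT). Fads3 and Elovl4 were higher in eWAT and Elovl1, Elovl2, Elovl5 and Fads2 were lower. Fads3 had the best supported difference, with 2.05 CPM in both livers against 67.7 and 70.4 CPM in eWAT, each scaled within its tissue (log2 fold change 3.86, SE 0.33, adjusted p = 0.000541). Elovl4 was at least 59-fold higher in eWAT (adjusted p = 0.00297). Elovl5 was lower in eWAT by a log2 fold change of -3.79 (SE 0.59, adjusted p = 0.00283), Elovl2 by -4.95 (SE 1.58, adjusted p = 0.0334), Fads2 by -2.03 (SE 0.60, adjusted p = 0.0256) and Elovl1 by -1.51 (SE 0.31, adjusted p = 0.00722). The median log2 fold change of the 8 was -1.03, against 0.61 for all genes. With library-size scaling the median of all genes moved from 0.61 to 2.0, the differences of Elovl1 (-0.11, adjusted p = 0.793) and Fads2 (-0.63, adjusted p = 0.27) were not called, and Fads1 turned from -0.55 to 0.85, called in neither. The number called was 3 without Crtc1+/+ replicate 1 of liver and 3 without Crtc1+/+ replicate 2 of eWAT. Elovl2 was not called when any of the 4 Crtc1+/+ libraries or either Crtc1-/- liver was left out (adjusted p = 0.0604 to 0.131). Fads2 was not called when any of the 4 Crtc1+/+ libraries was left out (adjusted p = 0.0696 to 0.118). Neither was called when same-numbered libraries of a genotype were taken for the same mouse (adjusted p = 0.0617 for each), which left 4 members called.

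In Crtc1-/- mice 3 of the 8 differed between the tissues, where 27.8% of all genes did (18.9% higher and 8.89% lower in eWAT). Fads3 was higher in eWAT by a log2 fold change of 6.72 (SE 0.37, adjusted p = 0.000339), and Fads1 (-1.85, SE 0.41, adjusted p = 0.0187) and Fads2 (-2.58, SE 0.61, adjusted p = 0.0231) were lower. Fads2 was not called with same-numbered libraries taken for the same mouse (adjusted p = 0.0636). Without Crtc1-/- replicate 1 of liver only Fads3 was called, and without Crtc1-/- replicate 2 of eWAT 5 members were, Elovl2 (-7.75, adjusted p = 0.000161) and Elovl5 (-2.27, adjusted p = 0.0139) in addition. The median over the 8 was -1.22, against 0.20 for all genes. Elovl3 itself had a log2 fold change between eWAT and liver of -7.84 in Crtc1+/+ and of 0.99 in Crtc1-/-, where the eWAT value came from replicate 2.

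Whether the genotype difference itself differed between eWAT and liver was tested as the interaction of tissue and genotype. Fads3 was the 1 member called of 8, where 6.94% of all genes were (3.78% higher and 3.16% lower). Its genotype difference was 2.87 higher in eWAT than in liver on the log2 scale (SE 0.42, adjusted p = 0.0145). The adjusted p was 0.0568 to 0.074 when any of the 4 liver libraries or the 2 Crtc1+/+ eWAT libraries was left out. For Elovl1, Elovl5, Fads1 and Fads2 the interaction did not pass the test (log2 1.26, 2.31, -1.31 and -0.55; adjusted p = 0.121, 0.111, 0.191 and 0.71), so their genotype differences were not shown to differ between the tissues. Nor did it for Elovl4 (log2 -7.77, SE 3.20, adjusted p = 0.177), which was at its floor in liver, for Elovl2 (2.38, adjusted p = 0.454) or for Elovl7 (-2.40, adjusted p = 0.247). Leaving out eWAT replicate 1 of Crtc1-/- gave 4 members called, and leaving out replicate 2 gave 2.

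The enzymes that complete the elongation cycle were looked at next. HSD17B12 reduces the keto group, the HACD proteins remove water and TECR reduces the double bond. None of their 6 genes passed the test in either tissue, where 12.2% of all genes did in eWAT and 0.0854% in liver. In eWAT DESeq2 called 2 of the 6, as did edgeR with all 8 libraries in 1 fit. With no expression filter edgeR called 1 in liver. The median log2 fold change was 0.17 in eWAT and -0.28 in liver. Hacd1 was at 1.32 (adjusted p = 0.0856), Hacd4 at -1.12 (adjusted p = 0.132), Tecr at -0.65, Hsd17b12 at 0.27, Hacd2 at 0.22 and Hacd3 at 0.13 in eWAT. In liver Hacd4, at a mean of 1.10 CPM, was at 2.20 (adjusted p = 0.121), Hsd17b12 at -0.66, Hacd1 at -0.56, Tecr at 0.52, Hacd3 at -0.39 and Hacd2 at -0.17.

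The stearoyl-CoA desaturases and ELOVL6 together make oleic acid and its relatives from palmitic acid. In eWAT their log2 fold changes lay on both sides of 0, and only falls passed the test. Elovl6 had 83.3 and 153 CPM in Crtc1+/+ and 12.3 and 19.2 CPM in Crtc1-/-, and fell by 2.91 on the log2 scale (SE 0.45, adjusted p = 0.0269). Scd2 had 643 and 995 CPM against 78.5 and 18.0 CPM, and fell by 4.08 (SE 0.85, adjusted p = 0.0448). Scd1, the main form of liver and fat, had 286 and 793 CPM against 12400 and 3490 CPM, without overlap (log2 fold change 3.88, SE 0.98, adjusted p = 0.066). Scd3 and Scd4 were at -3.29 and -2.32 (adjusted p = 0.0551 and 0.164). Of these 5 genes 2 were thus called, both lower, where 5.54% of all genes were called lower, and the median was -2.91. The epididymis markers, at 8.01% and 9.35% of counts in Crtc1+/+ and 0.00265% and 0.00128% in Crtc1-/-, moved with these falls, and their part was not tested. In liver 3 were tested and none called, with Elovl6 at 0.01, Scd1 at 1.04 (SE 0.26, adjusted p = 0.137) and Scd2 at 0.55, a median of 0.55. The Scd genes are near-identical in part, so reads may have been split between them.

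Of 10 genes for electron donors, acyl-CoA synthetases and the acyltransferase LPCAT3, 1 was called in eWAT. Cyb5a, the cytochrome b5 that feeds the desaturases, rose by a log2 fold change of 1.79 (SE 0.38, adjusted p = 0.0466), while Cyb5r3, its reductase, was at 1.2 (adjusted p = 0.0669) and Acsl1 at 0.60 (adjusted p = 0.361). The median was 0.53. In liver none of the 9 tested was called, with Slc27a2 at -0.57, Cyb5a at 0.37 and Acsl1 at -0.88, and the median was 0.04.

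Among 9 regulators of lipid synthesis, 3 were called in eWAT, all higher, where 6.65% of all genes were called higher. These were Pparg, the nuclear receptor that drives fat cell formation (log2 fold change 3.52, SE 0.41, adjusted p = 0.0184), Nr1h3, which encodes the oxysterol receptor LXR alpha (3.41, SE 0.37, adjusted p = 0.017), and Rxra, their shared partner (2.32, SE 0.34, adjusted p = 0.0251). The adipocyte markers, at 0.290% and 0.481% of counts in Crtc1+/+ and 4.85% and 2.33% in Crtc1-/-, moved with them, and their part was not tested. Srebf1, the sterol regulatory factor known to act on Fads1, Fads2 and Elovl genes, was at -0.13 (SE 0.42, adjusted p = 0.848). The median was 1.63. In liver none of the 9 was called, with Rxra at -0.39, Nr1h3 at -0.01 and Insig2 at -0.87, and the median was -0.01. Among 18 genes of the circadian clock, 3 were called higher in eWAT and 1 lower, where 6.65% and 5.54% of all genes were, with Nr1d1 at 2.45 (adjusted p = 0.0215), Per1 at 1.56 (adjusted p = 0.0434), Bhlhe41 at -3.44 (adjusted p = 0.0353) and Tef at 0.85 (adjusted p = 0.105), and a median of 0.78. In liver none of 16 was called, with Dbp at 1.88 (adjusted p = 0.0988), Tef at 0.48 and Nr1d1 at -0.01, and a median of 0.10. At the study's threshold 3 were counted there as higher and 2 as lower, where 2.84% and 1.43% of all genes were. DESeq2 called 5 of these clock genes in liver, as did edgeR with no expression filter. Without either Crtc1+/+ eWAT library no gene of these lists was called in eWAT, as no gene of the whole table was.

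Elovl3 is expressed more in the liver of males than of females in mice, and the sex-biased genes of the liver were therefore listed beside it. All 11 male-biased genes tested in liver had log2 fold changes below 0 in Crtc1-/- mice, with a median of -1.52, and 1 was called, where 0.0256% of all genes were called lower. This was Mup7 (-5.80, SE 0.79, adjusted p = 0.0493), with Cyp2d9 at -1.52 (adjusted p = 0.083), Mup20 at -1.57 and Cyp4a12a at -1.83. All 10 female-biased genes tested were above 0, with a median of 3.98, though Cux2 was at only 0.01 (SE 0.49). Of these 10 genes 3 were called, where 0.0598% of all genes were called higher. They were Sult2a2 (7.82, SE 1.0, adjusted p = 0.0418), Cyp3a41a (6.36, SE 0.78, adjusted p = 0.0418) and Cyp2b13 (5.30, SE 0.61, adjusted p = 0.0332). Of the abundant ones, Cyp2a4 was at 1.16 (adjusted p = 0.264) and Cyp2b9 at 0.69 (adjusted p = 0.276). Both lists were drawn up with earlier results of these livers known and are not independent evidence of a direction. Without Crtc1-/- replicate 1 of liver 11 male-biased and 9 female-biased genes were called, and without Crtc1+/+ replicate 2 none and 1. In eWAT 1 of 6 male-biased genes was called, C6 (3.27, adjusted p = 0.0283), and none of 8 female-biased genes. Of all genes 6.65% were called higher there and 5.54% lower. The medians were 3.81 for the male-biased and 4.56 for the female-biased genes. Cyp2d9 (5.38, adjusted p = 0.18), Mup20 (4.35) and Cyp2a4 (4.39) had standard errors of 2.32, 2.02 and 2.17, and Cyp2d9 had 97 counts in Crtc1-/- replicate 1 and 12680 in replicate 2. Hepatocyte markers took 11.3% of counts in Crtc1-/- replicate 2 of eWAT and 0.143% to 0.717% in the other eWAT libraries. Their part in these values was not tested. The counts of the Mup, Sult2a, Cyp3a41, Cyp2b and Cyp4a12 genes are uncertain, as each has a close copy that shares reads with it.

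The genes with profiles most like those of the members over the 8 libraries were found by the root mean square difference of centred log2 CPM among 14846 genes. The 8 libraries share tissues and cell mixtures, so the likeness describes these libraries. The 5 nearest to Elovl3 were Mup1 (0.83), Mup18 (0.88), Mup8 (0.89), Mup9 (1.04) and Cyp4a12a (1.08), where the median gene was 3.12 away. Mup1 had 18.7 and 44.4 CPM in Crtc1+/+ liver, 4.25 and 1.23 CPM in Crtc1-/- liver, and 25.3 CPM in Crtc1-/- eWAT replicate 2 against at most 0.311 CPM in the other eWAT libraries. The nearest member to Elovl3 was Elovl5, 1.76 away and 103rd in order. Fads1 and Fads2 were each other's nearest members (0.77), while the member nearest to Fads3 was Elovl7 (2.98), further away than the median gene (2.85). The 2 genes nearest to the others were Pkdcc and Nagpa for Elovl1, Serpinf2 and Ido2 for Elovl2, Tchh and Slco4c1 for Elovl4, Hsd3b7 and Insig2 for Elovl5, Rragd and Cd160 for Elovl7, Gprc5c and Ppfibp2 for Fads1, Sdc1 and Suox for Fads2, and Meox2 and Adcy5 for Fads3, at distances from 0.06 to 0.45.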

How the data were processed

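Liver and eWAT RNA of Crtc1-/- and Crtc1+/+ males was sequenced, 2 libraries a group, and every library was used. The authors deposited estimated counts per gene that were not normalized and FPKM, which scale fragments by transcript length and library total, for the same 19348 genes. The submitters' processing notes name HISAT, Bowtie2 and GRCm38.p6, while the counting tool, its annotation and its use of strand are not given in the sources used here, so reads of overlapping genes on opposite strands cannot be told apart. Identifiers are symbols and NCBI Gene numbers.

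The members and the gene lists were chosen with earlier results of these data known. Counts were rounded. Genes were filtered by filterByExpr, scaled by TMM and tested by edgeR's quasi-likelihood test (edgeR 4.0.16, R 4.3.3) within each tissue, or over all 8 libraries for the tissue contrasts and the interaction, and p-values were adjusted by the Benjamini-Hochberg method across every gene in the fit. A gene was called at an adjusted p under 0.05, and counts are also given at the study's threshold, a change of more than 1 on the log2 scale at a p under 0.01 before adjustment. Elovl3 was not tested in contrasts that use liver. Standard errors follow from each log2 fold change and its F statistic. The floor was 3 counts per library, and a group counted as at the floor when neither library exceeded it. Depth was 16560070 to 19721464 counts per library, so the spread between 2 mice, not counting error, limits most comparisons. P-values measure the spread between these libraries.

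All members and Crtc1 were named, all tested genes of the elongation cycle and of the Scd and Elovl6 list, of other lists the 3 most abundant and up to 3 called with the largest change, and the nearest profiles, except 1 gene that is not reported here (prior count 2, mean count of at least 10). Alternatives were upper-quartile and library-size scaling, DESeq2 1.42.0, limma 3.58.1 on quantile-normalized log2(FPKM + 1) and log2(FPKM + 0.1), no filter, a mean count of at least 50, removal of epididymis genes, a replicate block, a block for the mouse in the tissue contrasts (added after seeing the data), all 8 libraries in 1 fit and each library left out. Tests were tried on simulated data. Locations and sequences came from RefSeq and GENCODE vM21 (GRCm38). Figures used Python 3.11.15, pandas 2.3.3 and matplotlib 3.10.9.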

Additional observations from a re-analysis of the deposited data

Results flagged for a closer look

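Fads3 was singled out because its genotype difference was not the same in both tissues by the interaction test, which gave 2.87 on the log2 scale (SE 0.42, adjusted p = 0.0145, edgeR). In eWAT both Crtc1-/- libraries (850 and 494 CPM) were above both Crtc1+/+ libraries (67.7 and 70.4 CPM), and in liver the values were 2.41 and 2.68 CPM against 2.05 in both. The adipocyte markers took 4.85% and 2.33% of counts in Crtc1-/- eWAT, 0.290% and 0.481% in Crtc1+/+ eWAT and 0.0460% to 0.0578% in liver, and their part in this difference was not tested.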

How the results depend on the processing

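Among 704 fold changes of members under the alternatives, 599 kept their direction and side of the threshold or stayed within the spread, 39 lost a call, 36 gained one, 24 changed sign and 6 without a test moved. In eWAT 2 members were called, but 4 with library-size scaling, 6 by DESeq2 (4620 genes in all, against 1875), 4 by limma on log2(FPKM + 1) and 0 to 5 when a library was left out. At the study's threshold it was 3. In liver none was called, but 1 by DESeq2 (311 genes, against 10), 1 with no filter (301 genes) and 1 at the study's threshold, and 0 to 3 when a library was left out. Limma called 0 genes in liver with either pseudocount. For eWAT against liver 6 were called in Crtc1+/+, but 3 by limma on log2(FPKM + 0.1) and 3 to 7 when a library was left out, and in Crtc1-/- 3 were, with 1 to 5. For the interaction 1 was called, but 3 by DESeq2, 3 by limma with either pseudocount and 0 to 4 when a library was left out. Of the genes called, 63.9% and 68.0% were higher in eWAT than in liver in Crtc1+/+ and Crtc1-/-, but 90.5% and 98.5% with library-size scaling. The higher share of interaction calls went from 54.5% to 37.2%, and of liver genotype calls from 70.0% to 87.5% with upper-quartile scaling. The causes were not tested.

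Whether the replicate numbers pair the samples is not known. Deviations of same-numbered libraries correlated at -0.01 to 0.15 over the 6 pairs of groups, and at 0.15 in Crtc1+/+ and 0.04 in Crtc1-/- between liver and eWAT. With a replicate block no gene was called in eWAT, so 0 members were (Fads3 adjusted p = 0.0546, Elovl4 0.0543), and 82 genes but 0 members were called in liver. A block for the mouse, added after seeing the data and taking the same number in a genotype for the same mouse, gave 4 members called between tissues in Crtc1+/+, 2 in Crtc1-/- and 1 for the interaction (Fads3, 2.84, adjusted p = 0.0408).

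Changes of sign were as follows. Elovl2 in eWAT by genotype was at -0.22 by limma on log2(FPKM + 0.1), -0.29 with the replicate block and -3.34 to 2.64 when a library was left out, with an interaction of -2.62 to 3.37. In liver Elovl7 was at -0.02 and -0.09 by limma with the larger and smaller pseudocount, and Fads1 at -0.59 to 0.07 when a library was left out. For eWAT against liver in Crtc1+/+, Elovl7 was at -0.16 and -0.50 by limma, and Fads1 at 0.85 with library-size scaling and 0.53 by limma with either. In Crtc1-/- Elovl1 was at 0.91 with library-size scaling, 0.17 by limma with either and -0.48 to 0.02 when a library was left out. Elovl3 was at -0.09 and -0.81 by limma, -0.09 with the block for the mouse and -4.44 to 2.73 when a library was left out. Elovl4, at its floor, was at -2.87 to 2.07 when a library was left out, and Elovl7 at 1.06 with library-size scaling and -2.04 to 0.54 when a library was left out. The interaction of Fads2 was then -1.23 to 0.22.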

Other observations

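The hepatocyte RNA found in eWAT can be described with the sex-biased liver genes, as counts per 100000 counts of the hepatocyte markers. These values were chosen after they were seen. In Crtc1-/- eWAT replicate 2, Elovl3 was at 6.46, beside 8.04 and 7.98 in Crtc1+/+ liver and 0.785 and 0.122 in Crtc1-/- liver. Cyp2d9, a steroid hydroxylase, was at 635, beside 680 and 854 in Crtc1+/+ liver and 324 and 229 in Crtc1-/- liver. Mup20, a urinary pheromone carrier, was at 225, beside 308 and 298 and then 161 and 54.2.

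In the same library the female-biased genes differed among themselves. Sult2a1, a sulfotransferase of bile acids and steroids, was at 68.5, beside 9.06 and 129 in Crtc1-/- liver and 0.165 and 0.0222 in Crtc1+/+ liver. Cyp2b13 was at 17.5, beside 17.5 and 32.9 and then 1.06 and 0.245. Cyp2b9 was at 54.5, within the 56.2 and 33.0 of Crtc1+/+ liver and below the 69.6 and 75.0 of Crtc1-/- liver. Cyp2a4 was at 82.1, beside 62.9 and 131 in Crtc1-/- and 63.7 and 24.9 in Crtc1+/+ liver. A1bg was at 0.25, below all 4 livers (0.511 to 3.52). High Elovl3 and high Sult2a1 relative to hepatocyte markers were thus found together in this library, and in none of the 4 livers. In the other eWAT libraries Elovl3 and Sult2a1 rested on at most 14 counts each. They were at 3.05 and 10.7 in Crtc1+/+ replicate 1, 11.9 and 0 in Crtc1+/+ replicate 2, and 2.91 and 5.83 in Crtc1-/- replicate 1.

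Crtc1+/+ eWAT replicate 1, with 131261 hepatocyte marker counts, had 54 counts of Sult2a2 and 29 of Cyp3a41a, which are 41.1 and 22.1 on that scale. The values in Crtc1-/- liver were 42.2 and 102 for Sult2a2 and 19.4 in both for Cyp3a41a, and those in Crtc1+/+ liver were 0.660 and 0 for Sult2a2 and 0 and 0.445 for Cyp3a41a. Crtc1+/+ eWAT replicate 2 had no count of either gene, with 25243 hepatocyte marker counts. In liver the epididymis markers summed to 44 and 37 counts in Crtc1+/+ and to 1592 and 196 counts in Crtc1-/-.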
